A study of Sus scrofa with 13 samples.

Results

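Matrix metalloproteinases (MMPs) are zinc-dependent enzymes that cut collagens and other proteins of the extracellular matrix, and the related ADAMTS enzymes mainly cut proteoglycans such as versican and aggrecan. Their activity is held back by the tissue inhibitors of metalloproteinases (TIMPs) and by RECK, an inhibitor anchored in the cell membrane. In skeletal muscle this system takes part in the turnover of the connective tissue that surrounds the fibres, in the release of growth factors bound to the matrix and in repair after damage. The genes described here were chosen by symbol and comprised the proteases MMP2, MMP14, MMP9, ADAMTS1 and ADAMTS5 and the inhibitors TIMP1, TIMP2, TIMP3 and RECK. These 9 symbols matched 10 of the 25322 gene identifiers in the count tables, because ADAMTS1 was given to 2 identifiers.

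The expression profile was measured by RNA sequencing in longissimus lumborum, a back muscle, of 13 female pigs aged 6 months. The pigs belonged to 4 groups, namely 3 Hampshire pigs with a high loin weight, 3 Hampshire pigs with a low loin weight, 4 Pietrain pigs with a high loin weight and 3 Pietrain pigs with a low loin weight. Each group was defined by breed and loin weight alone, no treatment was named, and single pigs are called here by the number in their label. The group sizes follow the labels, and where the study lists its groups by muscle weight, the Pietrain high group has fewer pigs than in the labels. Total counts ranged from 11312755 to 20134612 per pig. Levels are given as CPM, counts scaled to the library total, normalised with the TMM method over all 13 pigs, and they were not compared between genes because gene length enters them. As a check of the tissue, 5 skeletal muscle fibre markers summed to between 92800 and 246000 CPM per pig. On the first principal component, which held 45.1% of the variance, the Hampshire high pigs stood apart, at -94.96 to -67.29 against -23.54 to 62.77 for the other pigs.

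Most members could be placed in the Sscrofa10.2 build with the coordinates in the deposited tables. MMP2 (ENSSSCG00000002829) lay at chr6:27526398-27553927, MMP14 (ENSSSCG00000002039) at chr7:81413668-81425248 and RECK (ENSSSCG00000005338) at chr1:264672809-264734347. Among the inhibitors, TIMP1 (ENSSSCG00000012277) lay at chrX:47372592-47376668, TIMP2 (ENSSSCG00000017164) at chr12:3293953-3337924 and TIMP3 (ENSSSCG00000000155) at chr5:11965791-11975326. The ADAMTS1 identifiers lay on the same chromosome, ENSSSCG00000012026 at chr13:200127201-200135726 and ENSSSCG00000029488 at chr13:200326440-200332110. The symbol TIMP3 is that of the deposited tables, and the reference names give it another identifier that was not in the count tables used here, so every TIMP3 value rests on the deposited symbol. Reads of the ADAMTS1 identifiers may have been split between them, and their counts were kept apart, so both are uncertain as measures of ADAMTS1. In the RefSeq gene table of the Sscrofa11.1 assembly, ADAMTS1 and ADAMTS5 lay on chromosome 13 with 2 genes between them. MMP9 (ENSSSCG00000007436) and ADAMTS5 (ENSSSCG00000012027) were identified by their reference names and have no coordinates here. In mammals TIMP1 and TIMP3 lie inside introns of synapsin genes on the opposite strand, and whether strand was used in the counting is not given in the sources used here.

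The first question was whether these genes differed with loin weight within Hampshire pigs. TIMP2, an inhibitor that also takes part in the activation of pro-MMP2 on the cell surface, was the member that rose, by 2.01-fold in pigs with a high loin weight. MMP2, TIMP1 and MMP14 had estimates in the same direction that did not pass the test, and TIMP3 had an estimate in the opposite direction that also did not pass. A gene was called when its adjusted p in edgeR's quasi-likelihood test was under 0.05 and its fold change at least 1.2, and 1 of the 9 identifiers tested met this, against 26.6% of all 12228 genes tested. This share is not above that of the whole table. Of the members, 2 had groups that did not overlap, TIMP2 and TIMP3, against 45.9% of all genes. The median log2 fold change of the members was 0.46, against 0.03 over all genes.

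Among the inhibitors, TIMP2 was at 42.6, 86.4 and 65.2 CPM in the Hampshire high pigs 8, 9 and 10. It was at 24.7, 42.3 and 29.5 CPM in the Hampshire low pigs 1, 2 and 3. All 3 high pigs were above all 3 low pigs, but high pig 8 and low pig 2 were nearly level. The log2 fold change was 1.01 ± 0.285 (SE, edgeR, adjusted p = 0.032, n = 3 and 3). The call depended on single pigs, since it was lost without high pig 9 (0.72, adjusted p = 0.117 in edgeR), high pig 10 (0.99, adjusted p = 0.0811), low pig 1 (0.80, adjusted p = 0.106 in edgeR) or low pig 3 (0.94, adjusted p = 0.115 in edgeR).

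TIMP1, a soluble inhibitor of most MMPs, was at 12.7, 29.6 and 21.9 CPM in the Hampshire high pigs 8, 9 and 10 and at 5.14, 17.1 and 7.36 CPM in the low pigs 1, 2 and 3. Low pig 2 was above high pig 8, so that the groups overlapped. The log2 fold change was 1.11 ± 0.445 (SE), with an adjusted p of 0.0934 in edgeR and 0.0281 in DESeq2. Without low pig 2 it was 1.77 with an adjusted p of 0.0199 in edgeR. TIMP1 was not called in the other fits with 1 pig left out (adjusted p of up to 0.293 in edgeR), nor in a fit over all 13 pigs.

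TIMP3, the inhibitor that binds to the matrix and also acts on ADAMTS enzymes, went the other way. Its levels were 1.77, 3.36 and 2.69 CPM in the Hampshire high pigs and 3.98, 4.86 and 5.54 CPM in the low pigs. Every high pig was below every low pig, yet the log2 fold change of -0.88 ± 0.304 (SE) did not pass the test (adjusted p = 0.0595 in edgeR). TIMP3 was also not called in DESeq2 or in a fit over all 13 pigs. With each pig left out in turn it was not called in any fit (adjusted p from 0.0522 to 0.178 in edgeR). The gene passed when at least 10 counts were required in every pig (-0.96, adjusted p = 0.0365 in edgeR) and when the trend with gene length was taken out (-1.08, adjusted p = 0.0281 in edgeR). That trend was a Spearman's rho of -0.386 between the log2 fold change and the span of a gene on its chromosome, over 9945 genes, which are not independent replicates. Counts of TIMP3 ranged from 26 to 100 in these pigs.

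RECK, the membrane inhibitor of MMP2, MMP9 and MMP14, was at 2.93, 3.00 and 3.90 CPM in the Hampshire high pigs and at 2.45, 3.99 and 5.54 CPM in the low pigs. The groups overlapped, and the log2 fold change was -0.27 ± 0.333 (SE, adjusted p = 0.57 in edgeR). Its estimate changed sign to 0.030 when the trend with gene length was taken out.

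Turning to the proteases, MMP2, which cuts gelatin and type IV collagen, was at 89.0, 203 and 179 CPM in the Hampshire high pigs 8, 9 and 10. It was at 43.5, 113 and 73.4 CPM in the low pigs 1, 2 and 3. As for TIMP1, low pig 2 was above high pig 8. The log2 fold change was 1.04 ± 0.382 (SE), with an adjusted p of 0.0727 in edgeR and 0.0145 in DESeq2, and in edgeR it was 0.0344 without high pig 8 and 0.0399 without low pig 2. MMP2 was not called in the other fits with 1 pig left out (adjusted p of up to 0.23 in edgeR), nor in a fit over all 13 pigs.

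MMP14, the membrane-bound enzyme that activates pro-MMP2, was at 11, 40.5 and 29.9 CPM in the Hampshire high pigs and at 8.39, 24.1 and 17.9 CPM in the low pigs. These ranges overlapped over most of the low group, and the log2 fold change was 0.69 ± 0.477 (SE, adjusted p = 0.302 in edgeR). MMP9, the gelatinase known from neutrophils and macrophages, had 1 to 9 counts in these 6 pigs, at 0.341, 0.818 and 0.064 CPM in the high pigs and 0.122, 0.194 and 0.140 CPM in the low pigs, and did not pass the filter on low counts. With 3 counts taken as the floor, a library of this size could not resolve levels under 0.146 to 0.273 CPM in the Hampshire pigs.

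The ADAMTS members gave no call in Hampshire pigs. ADAMTS5, an aggrecanase, had 1 to 20 counts, ranging from 0.064 to 1.36 CPM in high pigs and from 0.490 to 0.972 CPM in low pigs (log2 fold change -0.52 ± 0.804, SE, adjusted p = 0.66 in edgeR). ADAMTS1, which cuts versican and aggrecan, had log2 fold changes of 0.44 ± 0.341 (SE) for ENSSSCG00000012026 and 0.46 ± 0.402 (SE) for ENSSSCG00000029488, with adjusted p of 0.361 and 0.422 in edgeR. For ADAMTS5 and ENSSSCG00000029488 the sign of the estimate turned with a single pig. Without high pig 10 ADAMTS5 was at 0.063 and ENSSSCG00000029488 at -0.14.

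**Figure D1:**
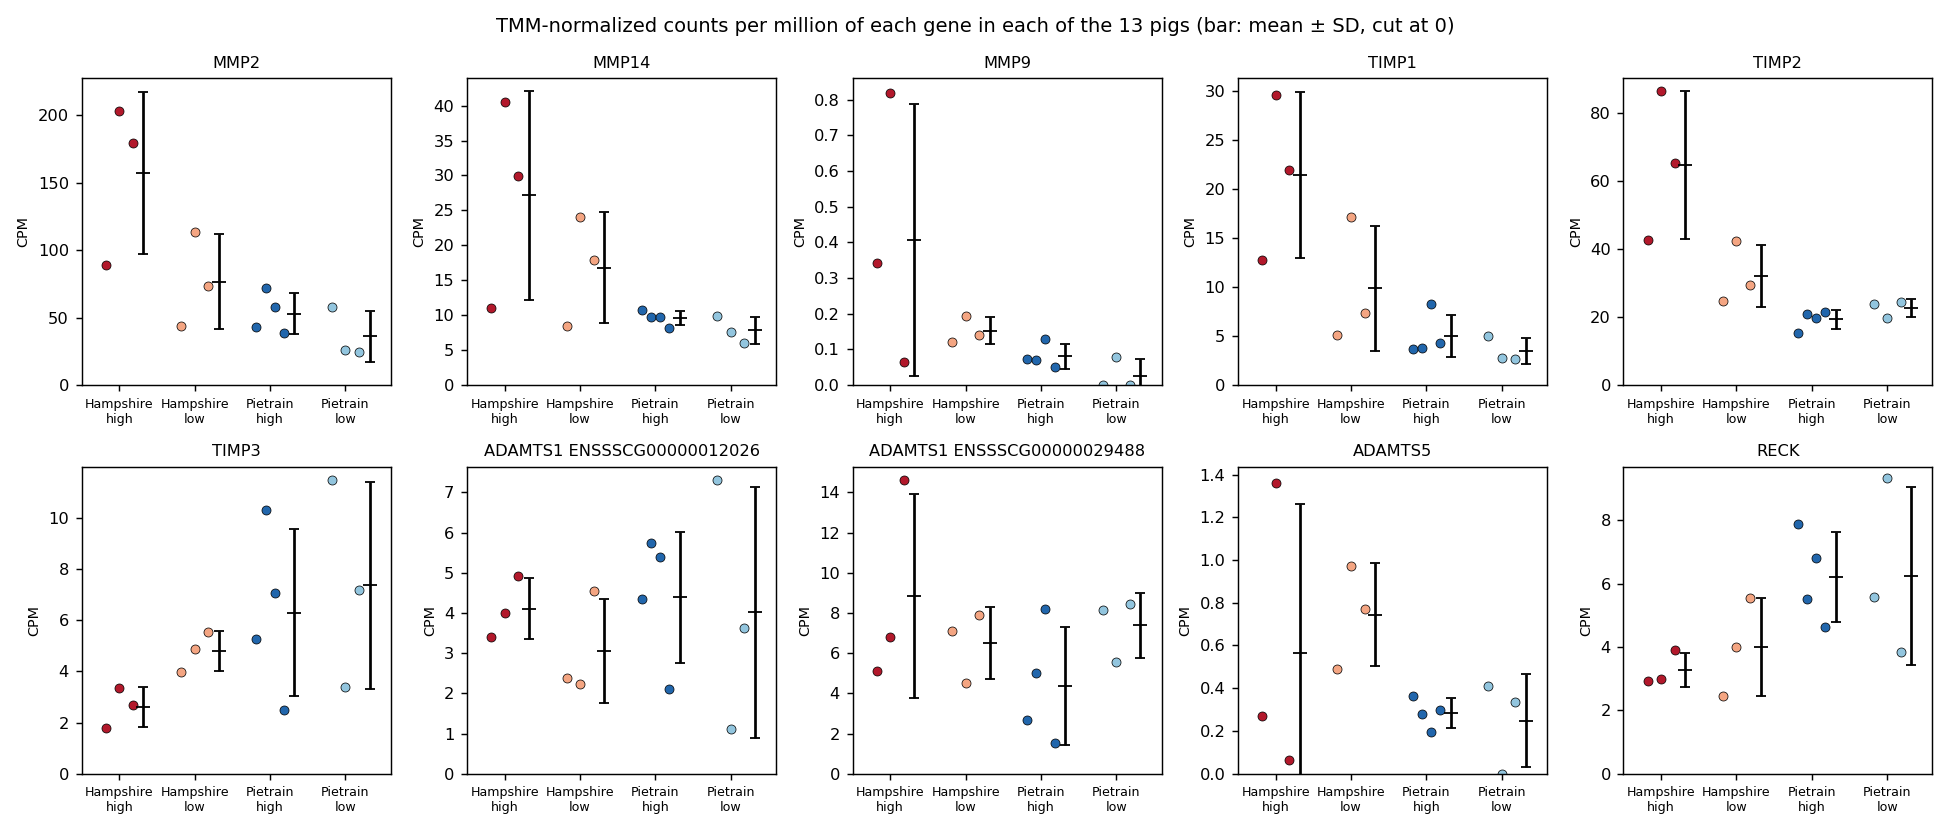
Level of each of the 10 identifiers in each pig, as TMM-normalised CPM on linear axes from 0, with 1 point per pig and the mean ± SD of each group beside the points. MMP2, MMP14, TIMP1 and TIMP2 had their highest pig among the Hampshire high pigs (pig 9), whereas TIMP3 was between 1.77 and 3.36 CPM in that group and reached 11.5 CPM in Pietrain low pig 3.

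In Pietrain pigs the same comparison gave no call among the 8 identifiers tested, as in the whole table, where the share called was 0% of 12065 genes (398 genes at an unadjusted p under 0.05 in edgeR, and 1 gene called by DESeq2). None of the members reached an unadjusted p of 0.05, against 3.3% of all genes in edgeR. In each of them the high and low groups overlapped, while 4.59% of all genes had groups that did not. Their median log2 fold change was 0.09, against 0.02 over all genes.

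Among the proteases, MMP2 was at 43.3, 71.9, 58.0 and 38.3 CPM in the Pietrain high pigs 1, 2, 6 and 7 and at 58.1, 25.9 and 24.7 CPM in the low pigs 3, 5 and 8. Low pig 3 lay among the high pigs, whereas the other two were below all of them. The log2 fold change was 0.57 ± 0.341 (SE, adjusted p = 0.939 in edgeR). MMP14 was within a narrow range, at 10.7, 9.72, 9.74 and 8.15 CPM in high pigs and 9.85, 7.52 and 6.05 CPM in low pigs (0.33 ± 0.240, SE, adjusted p = 0.939 in edgeR). MMP9 had 0 to 2 counts per pig and was at 0 in low pigs 3 and 8, where 3 counts would have been 0.246 and 0.202 CPM. ADAMTS5, with 0 to 6 counts, did not pass the filter in this breed.

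For the inhibitors, TIMP1 was at 3.69, 3.78, 8.24 and 4.25 CPM in the Pietrain high pigs and at 5.01, 2.77 and 2.62 CPM in the low pigs, with pig 6 standing above all others (0.55 ± 0.395, SE, adjusted p = 0.939 in edgeR). TIMP2 was at 15.3, 21.0, 19.7 and 21.5 CPM in high pigs and 23.7, 19.6 and 24.5 CPM in low pigs. Unlike in Hampshire pigs, the groups of TIMP2 overlapped and the estimate was negative (-0.19 ± 0.205, SE, adjusted p = 0.939 in edgeR). High pig 1 was under all low pigs, and the other high pigs lay between low pig 5 and the other low pigs. TIMP3 was widely spread in both groups, at 5.28, 10.3, 7.08 and 2.50 CPM in high pigs and 11.5, 3.40 and 7.19 CPM in low pigs (-0.22 ± 0.490, SE, adjusted p = 0.958 in edgeR).

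The remaining members also overlapped between the Pietrain groups. RECK was at 7.89, 5.52, 6.82 and 4.65 CPM in high pigs and 5.58, 9.34 and 3.83 CPM in low pigs, and its log2 fold change was 0.03 ± 0.327 (SE, adjusted p = 0.99 in edgeR). The ADAMTS1 identifiers had log2 fold changes of 0.14 ± 0.555 (SE) for ENSSSCG00000012026 and -0.74 ± 0.479 (SE) for ENSSSCG00000029488, with adjusted p of 0.974 and 0.939 in edgeR. Low pig 5 was at 1.11 CPM for the first identifier and low pig 3 at 7.31 CPM, so that the low group alone covered the whole Pietrain range. For the second, the high pigs were at 2.68, 5.03, 8.18 and 1.55 CPM and the low pigs at 8.13, 5.54 and 8.47 CPM, with high pig 6 among the low pigs and the other high pigs under all of them.

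Whether the difference with loin weight was the same in both breeds was tested with an interaction term over all 13 pigs. No member passed among the 9 tested, against 5.9% of the 12831 genes in the table (edgeR, with 1 member at an unadjusted p under 0.05, against 22.1% of all genes, and 1 called by DESeq2). That gene was TIMP2, whose log2 fold change was 1.23 ± 0.354 (SE) larger in Hampshire than in Pietrain pigs, with an adjusted p of 0.0561 in edgeR, 0.0163 in DESeq2 and 0.0422 in edgeR with the length trend taken out. In edgeR it was also called without Hampshire high pig 8 or low pig 2, and over all 13 fits with 1 pig left out the estimate ran from 0.90 to 1.42 with adjusted p from 0.0263 to 0.18. The other 8 identifiers had adjusted p of 0.329 or more in edgeR. For MMP2 and TIMP1 the differences were 0.49 ± 0.559 (SE) and 0.58 ± 0.634 (SE), each smaller than its standard error.

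Hampshire and Pietrain pigs were then compared at the same loin weight. The breeds were deposited as separate count tables, and differences of breed and of any separate handling cannot be told apart. In high loin weight pigs, 4 members were higher and 2 lower in Hampshire. The 6 calls among 9 identifiers stand beside 46.8% of all genes called in this comparison, 22.6% higher and 24.2% lower. The groups did not overlap in 5 of the members tested, against 48.7% of all genes, and the members' median log2 fold change was 1.03, against 0.02 over all genes.

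TIMP2 gave the member with the smallest p, whose mean was 64.7 ± 21.9 CPM in the 3 Hampshire high pigs, against 19.4 ± 2.81 CPM (both SD) in the 4 Pietrain high pigs. This corresponded to 3.33-fold (log2 1.74 ± 0.241, SE, adjusted p = 0.000104 in edgeR). TIMP1 was 4.28-fold higher (log2 2.10 ± 0.426, SE, adjusted p = 0.0014 in edgeR), with means of 21.4 ± 8.5 (SD, n = 3) and 4.99 ± 2.18 CPM (SD, n = 4). The proteases MMP2 and MMP14 were 2.97-fold and 2.83-fold higher, with adjusted p of 0.00424 and 0.00578 in edgeR. In each of these 4 genes the lowest Hampshire high pig was above the highest Pietrain high pig, although for MMP14 the gap was only from 10.7 to 11 CPM and the call was lost without Hampshire high pig 9 (1.06, adjusted p = 0.053 in edgeR).

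TIMP3 and RECK were lower in Hampshire high than in Pietrain high pigs. TIMP3 had means of 2.61 ± 0.799 (SD, n = 3) and 6.28 ± 3.26 CPM (SD, n = 4), and its log2 fold change was -1.27 ± 0.466 (SE, adjusted p = 0.0372 in edgeR). Pietrain high pig 7 lay within the Hampshire range, and the call was lost without Hampshire high pig 8 or 10 or Pietrain high pig 2 or 6, with estimates from -1.33 to -0.92 and adjusted p in edgeR from 0.0652 to 0.121. RECK had means of 3.28 ± 0.542 (SD, n = 3) and 6.22 ± 1.42 CPM (SD, n = 4) without overlap (log2 fold change -0.92 ± 0.346, SE, adjusted p = 0.0418 in edgeR). Its call was lost without Hampshire high pig 8 or 9 or Pietrain high pig 1, 2 or 6, with adjusted p in edgeR from 0.0526 to 0.0997. With the length trend taken out, the RECK estimate was -0.46 (adjusted p = 0.254 in edgeR). RECK spans a long stretch of its chromosome, and in this comparison Spearman's rho between the log2 fold change and the span of a gene was -0.391 over 9975 genes. The ADAMTS members were not called. ADAMTS1 was at 1.03 ± 0.473 (SE, adjusted p = 0.088 in edgeR) for ENSSSCG00000029488 and -0.09 ± 0.495 (SE, adjusted p = 0.895 in edgeR) for ENSSSCG00000012026. ADAMTS5 was at 0.90 ± 0.864 (SE, adjusted p = 0.407 in edgeR).

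In low loin weight pigs, 3 of the 9 identifiers had groups that did not overlap (TIMP1, TIMP2 and ADAMTS5), against 42.8% of all genes. TIMP1 alone was called, against 17.9% of all genes. It was 2.86-fold higher in Hampshire pigs (log2 1.52 ± 0.476, SE, adjusted p = 0.0416 in edgeR), with means of 9.85 ± 6.34 and 3.47 ± 1.34 CPM (SD, n = 3 each). The lowest Hampshire pig, at 5.14 CPM, was barely above the highest Pietrain pig, at 5.01 CPM. This call was lost without Hampshire low pig 2 or 3 or Pietrain low pig 5 or 8, with adjusted p in edgeR from 0.0685 to 0.214, and with the length trend taken out (1.33, adjusted p = 0.0554 in edgeR). MMP2 and MMP14 had estimates of 1.08 ± 0.414 and 1.11 ± 0.420 (SE), with adjusted p of 0.0794 and 0.0771 in edgeR. In DESeq2 both passed, at 0.0388 and 0.044. TIMP2 was higher in all 3 Hampshire low pigs than in all 3 Pietrain low pigs, from 24.5 to 24.7 CPM at the boundary, without passing the test (0.51 ± 0.259, SE, adjusted p = 0.172 in edgeR). ADAMTS5, with 8 to 20 counts in Hampshire and 0 to 5 in Pietrain low pigs, was at 1.55 ± 0.926 (SE, adjusted p = 0.242 in edgeR). TIMP3, RECK and the ADAMTS1 identifiers had negative estimates that were not called.

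**Figure D2:**
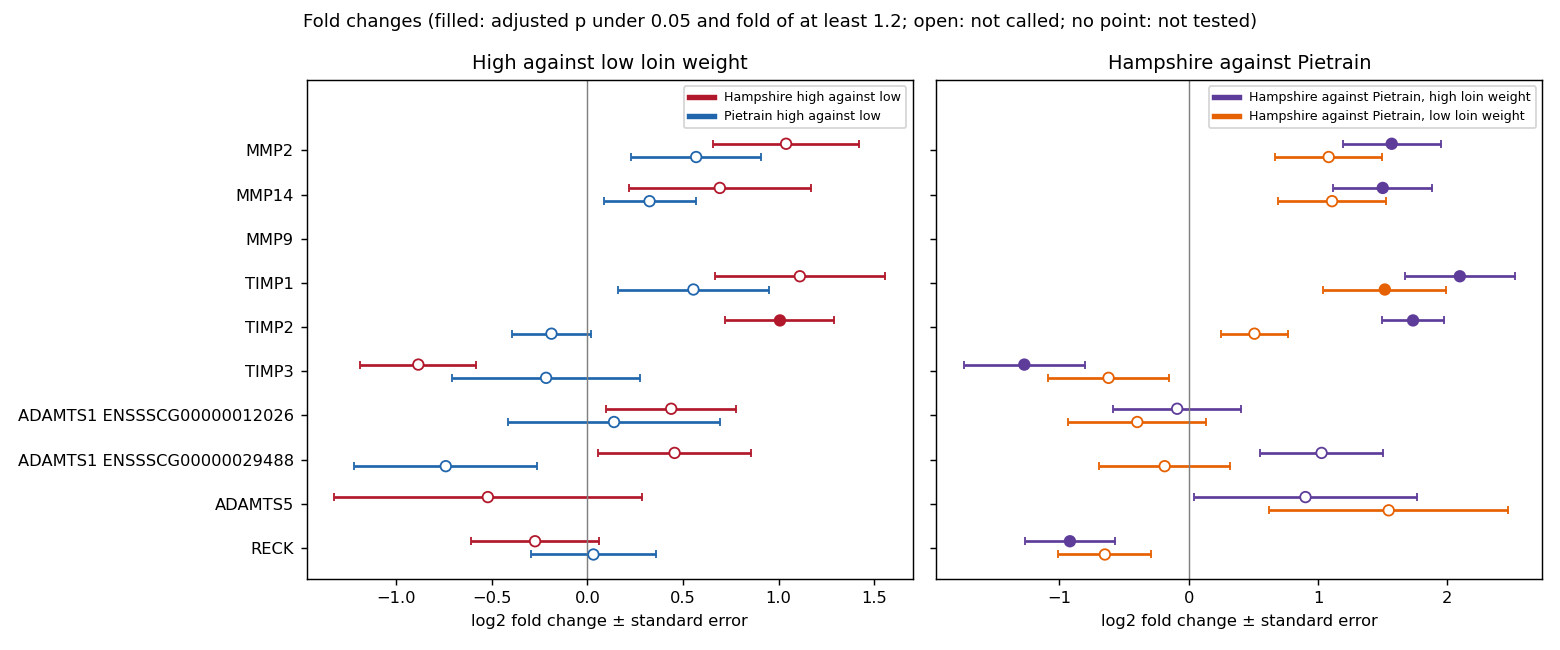
Log2 fold change ± SE of each identifier from edgeR, for high against low loin weight within each breed (left) and for Hampshire against Pietrain at each loin weight (right). Filled points were called (adjusted p under 0.05 and a fold of at least 1.2), and MMP9, as well as ADAMTS5 in Pietrain pigs, has no point because it did not pass the filter on low counts. TIMP2 at 1.01 is the filled point on the left, and the right panel holds 6 filled points in high and 1 in low loin weight pigs.

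Read gene by gene, the order of the group means was Hampshire high, Hampshire low, Pietrain high and Pietrain low for MMP2, MMP14 and TIMP1, and the neighbours in that order overlapped in each of them. For MMP9 no order was read, since 3 of its 4 group means were at or near the level of 3 counts or under it. For TIMP2 the order of the lower groups was turned, with Pietrain low pigs at 22.6 ± 2.62 CPM (SD, n = 3) above Pietrain high pigs at 19.4 ± 2.81 CPM. TIMP3 and RECK had the opposite order, from 7.36 ± 4.05 and 6.25 ± 2.81 CPM (SD, n = 3) in Pietrain low pigs down to the Hampshire high pigs.

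Because the members are opposed in action, their balance was read within each pig as the ratio of the counts of a pair of genes, which does not depend on the library size or its normalisation. A ratio of counts is not a ratio of molecules, since the genes differ in length, and it was compared between pigs only, as a description without a test. MMP2 over TIMP3 was 50.3, 60.2 and 66.8 in the Hampshire high pigs 8, 9 and 10. In the Hampshire low pigs 1, 2 and 3 it was 10.9, 23.3 and 13.3, in the Pietrain high pigs 8.19, 6.99, 8.20 and 15.3, and in the Pietrain low pigs 5.05, 7.60 and 3.44. The Hampshire high pigs were above every other pig and lay close to each other.

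TIMP1 over TIMP3 is a ratio between inhibitors, not of a protease to an inhibitor. It shares TIMP3 with the ratio above, and the CPM of TIMP3 alone did not overlap between the Hampshire groups. TIMP1 over TIMP3 separated the pigs in the same way, at 7.15 to 8.81 in Hampshire high, 1.29 to 3.51 in Hampshire low, 0.367 to 1.70 in Pietrain high and 0.364 to 0.814 in Pietrain low pigs. MMP2 over RECK was 30.4 to 67.5 in Hampshire high and 13.3 to 28.4 in Hampshire low pigs, and between 2.77 and 13 in Pietrain pigs. Not all pairs did so. MMP2 over TIMP2 was 2.09 to 2.75 in Hampshire high and 1.76 to 2.68 in Hampshire low pigs, and MMP2 over TIMP1 was 6.84 to 8.18 and 6.63 to 9.97. MMP14 over TIMP2 was 0.259 to 0.468 and 0.34 to 0.608. These ratios overlapped between the Hampshire groups, in contrast to the separate ranges of the ratios over TIMP3 and RECK. The trend with gene length was not taken out of any ratio, and the RECK estimate in Hampshire pigs changed sign when it was taken out.

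**Figure D3:**
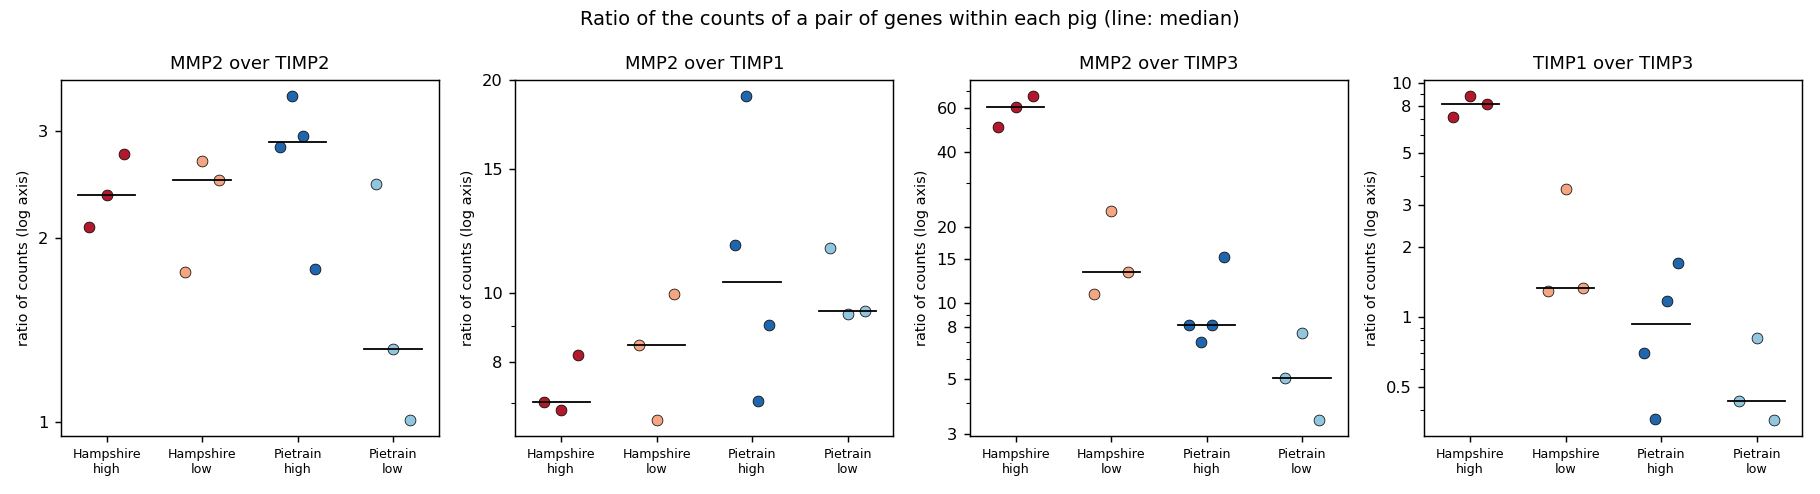
Ratio of the counts of a pair of genes within each pig, on logarithmic axes, with 1 point per pig and a line at the group median. MMP2 over TIMP3 and TIMP1 over TIMP3 were above 50 and above 7 in the Hampshire high pigs and under both values in all other pigs, whereas MMP2 over TIMP2 and MMP2 over TIMP1 overlapped between the Hampshire groups.

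In muscle tissue MMPs and TIMPs are made largely by cells between the fibres, so markers of these cells were set beside the members. In bulk samples, fewer cells of a type and less RNA per cell cannot be told apart. The 6 fibroblast markers found of 7 summed to 215 to 483 CPM in Hampshire high, 112 to 212 in Hampshire low, 118 to 227 in Pietrain high and 135 to 195 CPM in Pietrain low pigs. In the Hampshire comparison all 6 had positive estimates and 2 were called (PI16 and CD34), a share near the 26.6% of all genes. The 5 macrophage markers found of 6 summed to 28.9 to 53.3, 18.4 to 27.3, 7.67 to 18.6 and 8.63 to 9.03 CPM in the same order of groups. All 5 had positive estimates in the Hampshire comparison and 1 was called (AIF1), against 26.6% of all genes. The tendon markers TNMD and MKX together were at 1.27 to 1.98 CPM in Hampshire high and at most 0.0612 CPM in Hampshire low pigs, with 3.55 CPM in Pietrain high pig 1. MKX was at most 0.0681 CPM in the Hampshire high pigs, so that their sum was nearly all TNMD. TNMD was called in the Hampshire comparison (log2 5.87, adjusted p = 0.00211 in edgeR), with at most 0.0486 CPM in the low pigs. Neutrophil markers were near 0, at no more than 1.18 CPM for 3 genes together. The part of these cells in the members' differences was not tested.

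Relative to the fibroblast sum, MMP2 was 0.414 to 0.504 in Hampshire high and 0.346 to 0.592 in Hampshire low pigs, and TIMP2 was 0.179 to 0.198 and 0.139 to 0.221. On this scale the groups overlapped for both genes. TIMP3 was 0.00696 to 0.00823 in Hampshire high and 0.0254 to 0.0355 in Hampshire low pigs, and RECK was 0.00621 to 0.0136 and 0.0209 to 0.0261. The Hampshire groups were apart on this scale for both inhibitors. The fibroblast sum itself did not overlap between these groups, so dividing by it lowers a gene in high pigs even where its own level is alike, and the CPM of RECK overlapped while that of TIMP3 did not.

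The other marker lists were mixed in the Hampshire comparison. Endothelial markers, 4 of 6 found, summed to 157 to 170 CPM in Hampshire high and 122 to 160 CPM in Hampshire low pigs with 0 called. The 5 pericyte and smooth muscle markers summed to 133 to 171 and 100 to 144 CPM, with 4 positive estimates and 1 called (ACTA2). RGS5, a large part of this sum, went the other way without overlap, at 44.5 ± 3.09 and 60.8 ± 11.2 CPM (SD, n = 3 each). Its log2 fold change of -0.45 was not called (adjusted p = 0.0749 in edgeR). The 2 adipocyte markers found of 5 summed to 6.74 to 29 and 1.61 to 5.2 CPM with 1 called (CIDEC), while satellite cell markers were at 34.7 to 46 and 42.3 to 46.3 CPM and blood cell markers at 82.1 to 238 and 45.3 to 173 CPM, both with 0 called. Among the 5 skeletal muscle fibre markers, 3 were called, CKM and MYH7 higher and MYH1 lower in Hampshire high pigs.

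**Figure D4:**
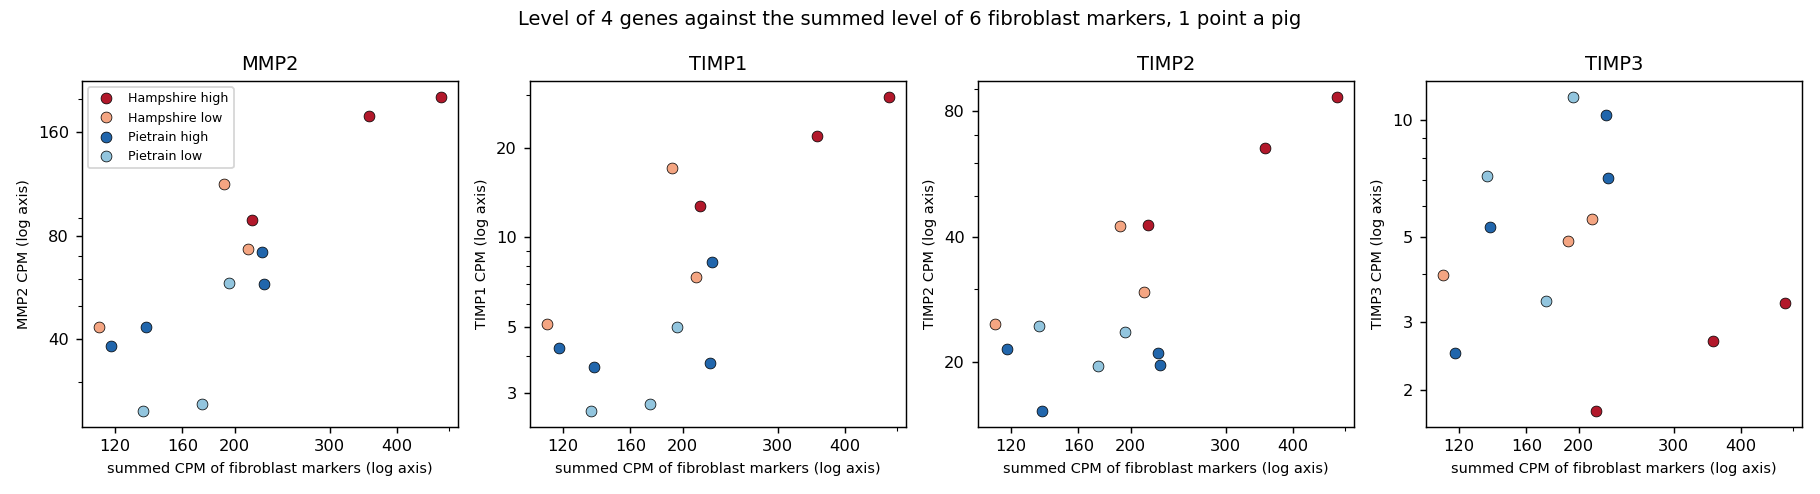
Level of MMP2, TIMP1, TIMP2 and TIMP3 (CPM, logarithmic axis) against the summed CPM of 6 fibroblast markers (logarithmic axis), with 1 point per pig coloured by group. The first 3 genes were highest in the Hampshire high pig with a marker sum of 483 CPM, whereas TIMP3 was at most 3.36 CPM in the Hampshire high pigs.

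Over the 13 pigs, MMP2, MMP14, TIMP1 and TIMP2 varied together, as did each of them with the fibroblast and the macrophage sum. Pearson's r of log2 CPM with MMP2 was 0.93 for MMP14, 0.94 for TIMP1 and 0.855 for TIMP2 over all pigs, and 0.84, 0.80 and 0.72 with the group means removed. TIMP3 differed in that its r with MMP2 was -0.24 over all pigs but 0.73 with the group means removed, so that pigs with more MMP2 than their group also tended to have more TIMP3. With the sum of the pericyte and smooth muscle markers, TIMP3 had an r of 0.338 over all pigs and 0.915 with the group means removed. With the macrophage sum, the r over all pigs was 0.869 for MMP2, 0.832 for MMP14, 0.926 for TIMP1 and 0.889 for TIMP2, above the values of 0.843, 0.805, 0.776 and 0.773 with the fibroblast sum. With the group means removed, it was 0.528, 0.51, 0.663 and 0.665 with the macrophage sum and 0.834, 0.795, 0.68 and 0.619 with the fibroblast sum. High values were not confined to these sums. With the pericyte and smooth muscle sum, the r over all pigs was 0.653 for MMP2, 0.513 for MMP14, 0.532 for TIMP1 and 0.572 for TIMP2. With the group means removed, these became 0.723, 0.395, 0.452 and 0.435. All the values share the libraries and their normalisation and are given as a description.

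**Figure D5:**
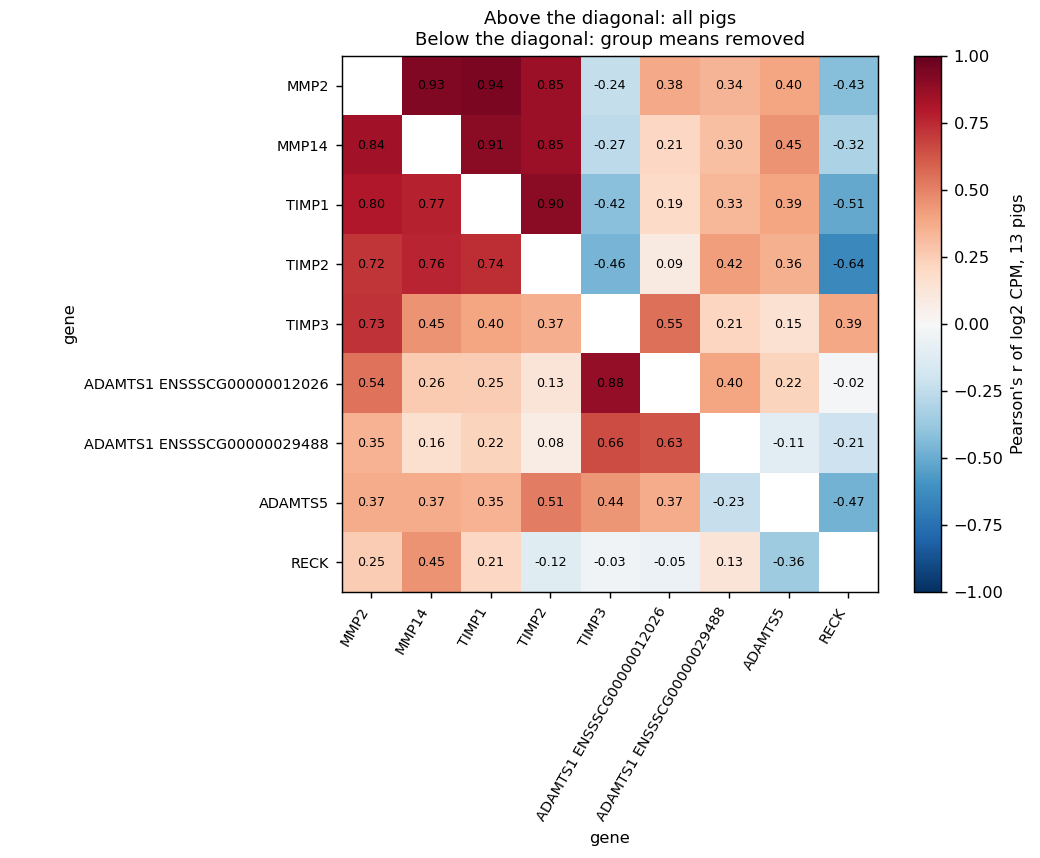
Pearson's r of log2 CPM over 13 pigs for each pair of members, over all pigs above the diagonal and with group means removed below it. MMP2, MMP14, TIMP1 and TIMP2 form a block with r of 0.85 or more above the diagonal, and TIMP3 with MMP2 goes from -0.24 above to 0.73 below.

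Among 9814 genes with a symbol, those whose log2 CPM was most like each member's over the 13 pigs were named by Pearson's r. For MMP2 they were SPARC (0.983), a collagen-binding matrix protein, COL6A2 (0.98), a chain of type VI collagen, and BMP6 (0.976), a growth factor. For MMP14 they were EMILIN2 (0.965), BMP1 (0.958), the procollagen C-proteinase, and AEBP1 (0.944). TIMP1 was most like FOSL1, EMP3 and CERCAM, each at 0.962, and TIMP2 like PRELID1 (0.969), THNSL2 (0.964) and TMEM134 (0.963). The nearest genes of MMP2 and MMP14 thus include matrix genes, whereas those of TIMP2 do not.

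TIMP3 was most like LAMC1 (0.918), a laminin chain of basement membranes, PROM1 (0.914) and CAVIN2 (0.9), a component of caveolae. RECK was most like ZBTB47 (0.939), ARID1B (0.87) and ZNF484 (0.853). For ADAMTS1, ENSSSCG00000012026 was most like ABCA1 (0.837), LDB2 (0.834) and FMNL3 (0.828), and ENSSSCG00000029488 was most like DRAM1 (0.875), NCAPH (0.832) and ZFP36L1 (0.826), so that the identifiers of this symbol had no nearest gene in common. ADAMTS5 was most like SH3TC1 (0.905), VASH2 (0.864) and ARHGAP39 (0.831), at counts of 20 or fewer per pig.

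The wider pathway was read from gene lists in which symbols had been matched to identifiers. The counts of calls below stand beside 26.6% of all genes called in the Hampshire comparison, and nothing is read from them about a list. In Hampshire pigs, 1 of 5 other MMPs tested rose, namely MMP19, by 2.16-fold (adjusted p = 0.0429 in edgeR). Of the 10 other ADAMTS enzymes tested, none rose and ADAMTS20, a relative of the versicanases, fell by 2.12 on the log2 scale (SE 0.409, adjusted p = 0.00855 in edgeR). Of the 7 ADAM proteases, ADAM15 rose (log2 0.92, adjusted p = 0.00815 in edgeR) and ADAM9, a cell-surface sheddase, fell by 1.30 on the log2 scale (adjusted p = 0.00429 in edgeR). ADAMTSL4, which lacks protease activity and binds fibrillin fibres, was the call among 3 ADAMTS-like genes (log2 1.40, adjusted p = 0.0353 in edgeR). MMP19 and ADAMTSL4 lost their calls without any one of 5 of the 6 pigs, all but high pig 8, and with the length trend taken out, with estimates from 0.68 to 1.51.

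PLAT, tissue plasminogen activator, was the call among 6 genes of the plasminogen system (log2 1.12, adjusted p = 0.0272 in edgeR), and it was lost without high pig 9 or 10 or low pig 2 or 3, with estimates from 0.84 to 1.07. Among 9 genes of MMP activation, inhibition and clearance, 2 rose and 1 fell. THBS2, thrombospondin-2, which binds MMP2 and carries it to a clearance receptor, was at 42.2 ± 20.6 CPM in Hampshire high and 5.13 ± 2.65 CPM in Hampshire low pigs (SD, n = 3 each, log2 3.04, adjusted p = 0.00416 in edgeR). It was spread from 2.29 to 130 CPM in Pietrain low pigs, and in a fit over all 13 pigs its adjusted p was 0.0882 in edgeR. TFPI2, a serine protease inhibitor of the matrix, rose from 21.7 ± 6.1 to 48.6 ± 11.7 CPM (SD, n = 3 each, adjusted p = 0.0117 in edgeR). SPOCK2, a proteoglycan of the testican family, fell from 19.8 ± 3.46 to 8.35 ± 1.74 CPM (SD, n = 3 each, adjusted p = 0.00575 in edgeR).

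The matrix substrates had the largest median among these lists, at 1.11, with 3 of 10 called and all 3 higher in Hampshire high pigs. DCN, the proteoglycan decorin, was at 809 ± 279 and 277 ± 74.3 CPM (SD, n = 3 each, log2 1.55, adjusted p = 0.0082 in edgeR), and COL3A1, a fibrillar collagen chain, had a log2 fold change of 1.44 (adjusted p = 0.0341 in edgeR). The third, COL1A2, which fell outside the rule for named genes and was named after its values were seen, had 1.54 (adjusted p = 0.0382 in edgeR). The COL3A1 and COL1A2 calls were lost without any one pig other than high pig 8, with estimates from 1.10 to 1.80. Among 10 upstream cytokines and transcription factors, none rose and 2 fell, TGFB2 by 0.74 and JUN, a part of the AP-1 factor, by 0.69 on the log2 scale (adjusted p = 0.0355 and 0.0385 in edgeR). Both calls were lost in the fit over all 13 pigs (adjusted p = 0.0518 and 0.258 in edgeR), the TGFB2 call also with the length trend taken out (-0.36, adjusted p = 0.26 in edgeR) and without any one pig other than high pig 8, with estimates from -0.87 to -0.58, and the JUN call without high pig 9 or 10 or low pig 2 or 3, with estimates from -0.76 to -0.50.

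In Pietrain pigs none of these lists held a call in edgeR. All 10 of 10 matrix substrates had positive estimates with a median of 0.43, against 52.4% of all genes and a median of 0.02. None of the 10 had an unadjusted p under 0.05 in edgeR, and genes measured in the same pigs are not independent. ADAM9, ADAMTS20 and SPOCK2 were called for a loin weight effect that differed between the breeds, with interaction terms of -1.36 ± 0.284, -1.96 ± 0.519 and -1.47 ± 0.410 (SE, adjusted p = 0.0141, 0.0406 and 0.0496 in edgeR). With each pig left out in turn, ADAM9 had an adjusted p under 0.05 in all 13 fits in edgeR, but ADAMTS20 and SPOCK2 in only 3 each. Of all genes, 5.9% were called by the interaction term. ADAM9 was at 3.87 ± 0.207 CPM in Hampshire high and 9.55 ± 0.954 CPM in Hampshire low pigs (SD, n = 3 each). In Pietrain pigs it was at 14.7 ± 2.83 CPM in the high group (SD, n = 4), against 14.1 ± 1.26 CPM in the low group (SD, n = 3).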

How the data were processed

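RNA from longissimus lumborum of 13 pigs was sequenced, and the count tables deposited by the authors, 1 per breed, hold unnormalised counts by Ensembl identifier with 1 column per pig. The submitters' processing notes list FastQC, STAR, RSEM, DESeq2 and the Sscrofa10.2 build, while the counting settings and annotation release are not given in the sources used here. The authors also deposited tables of their own comparisons with log2 fold changes, a test score, p-values and adjusted p-values, of which only gene symbols and coordinates were used. Symbols came from these tables for 7066 identifiers and from reference names for 6102, of 25322. Groups came from the labels.

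Counts were tested with edgeR 4.0.16 in R 4.3.3 (quasi-likelihood test, TMM, filterByExpr, Benjamini-Hochberg adjustment over all genes tested). Each breed was fitted alone, and the interaction and breed contrasts came from 1 fit over the 4 groups. A call needed an adjusted p under 0.05 and a fold of at least 1.2, and the SE was the log2 fold change divided by the square root of F. Correlations used log2 CPM with a prior count of 2. Ratios and levels came from the same counts, and the floor was 3 counts. The scripts were tested on simulated data. The 15 pairs of pigs within groups differed by more than sampling noise (smallest chi-square per degree of freedom 23.74), so no pig was counted as a repeat of another. Total counts of 11312755 to 20134612 left MMP9 and ADAMTS5 with 20 counts or fewer per pig, and floors cover counting error only.

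The members and the gene lists were chosen with earlier results of these data known. All members were named, with, per list and breed, up to 2 called genes in each direction with the smallest adjusted p, and the 3 genes most like each member. Of 150 symbols in the pathway and marker lists, 114 were matched. Alternatives were DESeq2 1.42.0, its size factors, other filters, no fold threshold, the fit over all pigs, a gene length trend taken out as an offset (lowess span 0.5, span on the chromosome), and each pig left out. For pathway genes these alternatives were added after the data had been seen.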

Additional observations from a re-analysis of the deposited data

Results flagged for a closer look

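The check for a pig far from the others was made only in groups of at least 4 pigs, which left the Pietrain high group. Of 26 quantities checked in these 4 pigs, 3 met Dixon's 95% criterion. Chance alone gives about 1 in 20 for a single check. These checks share the same pigs and in part the same genes, so their count cannot be set against that rate. TIMP1 was at 8.24 CPM in Pietrain high pig 6, against 3.69 to 4.25 CPM in the other pigs of that group. The tendon markers TNMD and MKX summed to 3.55 CPM in Pietrain high pig 1. MMP2 over TIMP3 was 15.3 in Pietrain high pig 7, against 6.99 to 8.20 in the others, and this pig had 2.50 CPM of TIMP3.

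The effect of loin weight differed between breeds in 3 pathway genes by the interaction term in edgeR. This test called 5.9% of all 12831 genes, and nothing is read from the count about the pathway. The interaction term was -1.96 on the log2 scale for ADAMTS20 (adjusted p = 0.0406), -1.36 for ADAM9 (adjusted p = 0.0141) and -1.47 for SPOCK2 (adjusted p = 0.0496). Each of these genes was lower in Hampshire high than in Hampshire low pigs. Leaving out each pig in turn, ADAM9 stayed past the threshold in all 13 fits. ADAMTS20 and SPOCK2 did so in only 3 fits each, with adjusted p of up to 0.0897 and 0.117 in edgeR.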

How the results depend on the processing

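No paired analysis was possible because each pig belonged to a single group. The same number in the labels of both breeds stands for different animals. The number of members called depended on the test and on single pigs. In Hampshire high against low it was 1, and became 3 with DESeq2, 2 with at least 10 counts in every pig, 2 with the gene length trend taken out and 0 to 3 with each pig left out. The difference between breeds gave 0, and 1 with DESeq2 or the length trend taken out, and 0 to 1 with each pig left out. Hampshire against Pietrain gave 1 in low loin weight pigs, 3 with DESeq2, 0 with the length trend taken out and 0 to 2 with each pig left out, and 6 in high loin weight pigs, with 4 to 6 when each pig was left out. The Pietrain comparison gave 0 members under every alternative run. DESeq2's size factors, no filter, no fold threshold and, within breeds, the fit over all 13 pigs left these counts within 1.5 times the main ones.

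RECK changed sign in Hampshire pigs with the length trend taken out (0.030) and in Pietrain pigs in the fit over all 13 pigs (-0.0073). With each pig left out, signs changed in log2 estimates that were not called. These ran in Hampshire high against low from -0.14 to 0.71 for ADAMTS1 ENSSSCG00000029488, -2.16 to 0.063 for ADAMTS5 and -0.57 to 0.019 for RECK, and in Pietrain pigs from -0.57 to 0.29 for TIMP3, -0.31 to 0.92 for ADAMTS1 ENSSSCG00000012026 and -0.22 to 0.41 for RECK. In the difference between breeds they ran from -0.095 to 0.83 for MMP2, -0.066 to 0.71 for MMP14 and -0.50 to 0.72 for ADAMTS1 ENSSSCG00000012026. In Hampshire against Pietrain they ran from -0.85 to 0.40 for ENSSSCG00000012026 and -0.36 to 0.068 for ENSSSCG00000029488 in low loin weight pigs, and from -0.32 to 0.069 for ENSSSCG00000012026 and -0.78 to 1.43 for ADAMTS5 in high loin weight pigs. Causes of these changes were not tested.

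Over the whole table, the genes called in Hampshire went from 3256 to 2091, 1760 and 1224 without high pig 9, high pig 10 and low pig 3. Those called between breeds in low loin weight pigs went from 2300 to 109, 501, 163 and 111 without Hampshire low pig 2 or 3 or Pietrain low pig 5 or 8. In the difference between breeds they went from 757 to between 379 and 494 without Hampshire high pig 9 or 10, Hampshire low pig 2 or 3 or Pietrain low pig 5 or 8, to 477 with the length trend taken out (9975 genes tested) and to 1223 with DESeq2.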
